A study of Mus musculus with 6 samples.

Results

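Ngfr, the gene of a low-affinity neurotrophin receptor, and 9 other genes used as markers of neural crest-like or dedifferentiated melanoma cells were followed in cells of 1 mouse melanoma line sorted by pigment. The other 9 were Nes, Sox9, Sox2, Zeb1, Wnt5a, Tead4, Smad3, Egfr and Aqp1. The 10 genes were taken by symbol from a table of 22740 genes, in which each symbol occurred once. In total, 7 of the 10 passed the filter on low counts, which kept 11921 of the 22740 genes. The other 3, Sox2, Wnt5a and Egfr, had no count in any library.

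B16-F3 is a melanoma cell line of the mouse, kept in culture with fetal bovine serum. Its cells were sorted by flow cytometry, by the light scatter that melanin causes, into a high-pigmented group (HPC) and a low-pigmented group (LPC), with 3 libraries of each. Neither group carried a genetic change or drug treatment named in the labels, and both come from this 1 line, sorted by the same method. Each read counts the 3' end of a polyadenylated transcript, so counts do not grow with transcript length, and a level is given as a raw count or as CPM, the count scaled to a common library size. The libraries held 14695822 to 22186743 counts, and LPC replicates 1 and 3 were the shallowest. Whether replicates came from separate cultures or sorts is not stated, so the p-values reflect library-to-library spread that may be technical.

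Melanoma cells can move between a differentiated state, in which MITF and SOX10 drive pigment genes, and states that resemble the neural crest from which melanocytes arise. Neural crest-like cells are known for NGFR, AQP1 and nestin, while more dedifferentiated cells are known for EGFR, WNT5A, SOX9, ZEB1 and the activity of TEAD and SMAD factors. Such states are studied because they are linked with drug tolerance and invasion. Melanocyte genes were abundant in both groups here: Dct, which encodes a melanin synthesis enzyme, stood at 13149 ± 931 CPM in HPC against 13787 ± 626 in LPC, and Sox10 at 733 ± 70.1 and 763 ± 35.5 CPM (SD, n = 3 each).

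Among the 10 genes, Ngfr differed most, and it was lower in HPC. It was the 1 gene of the 7 that passed in edgeR's quasi-likelihood test (adjusted p under 0.05) when the replicate number was a block, where 2.52% of all genes passed. Without the block none of the 7 passed, against 0.0419% of all genes. At an unadjusted p under 0.05 Ngfr alone did, against 9.37% of all genes, and DESeq2 without the block also passed none of the 7, against 1.88% of all genes. Tead4 and Ngfr were the 2 genes whose groups did not overlap, Tead4 higher and Ngfr lower in HPC, against 14.3% of all genes (7.16% higher and 7.18% lower). The median log2 fold change (HPC over LPC) of the 7 was -0.19, beside -0.0091 over all tested genes.

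**Figure D1:**
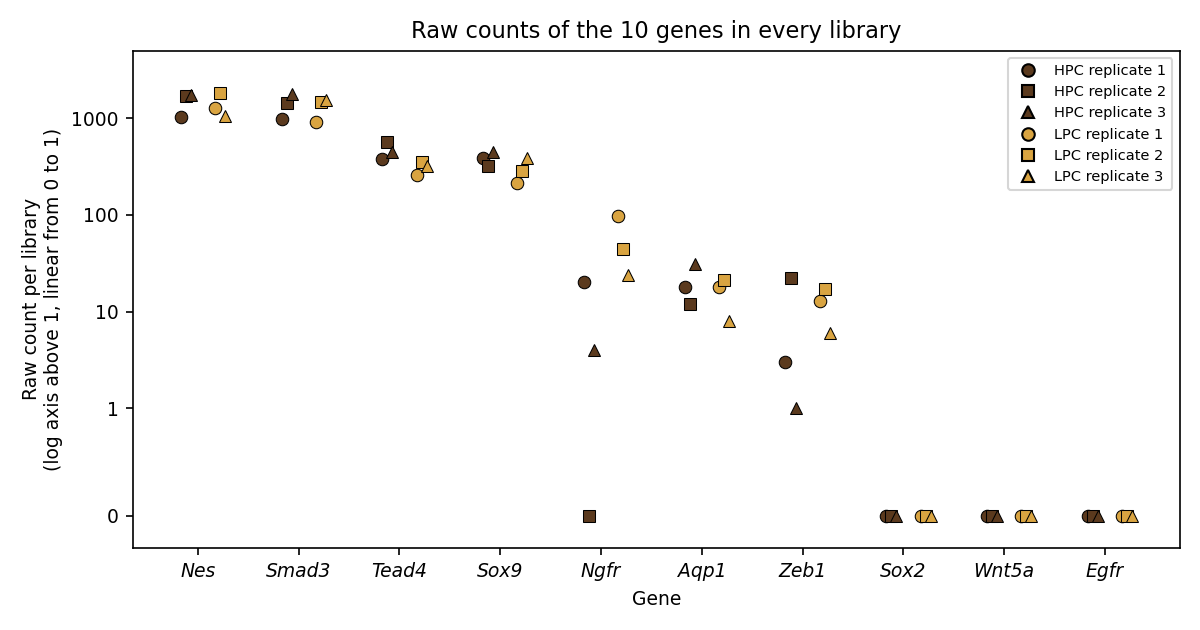
Raw counts of the 10 genes (x axis, from most to fewest counts) in each of the 6 libraries, dark for HPC and light for LPC, with a marker shape for each replicate number; the y axis is a log axis above 1 and linear below. Nes and Smad3 lie between 909 and 1827 counts, Ngfr runs from 0 to 98 with all HPC libraries below all LPC libraries, and Sox2, Wnt5a and Egfr lie at 0 throughout.

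The levels fell into 4 tiers. Nes, at 57.8 to 96.5 CPM over the 6 libraries, and Smad3, at 55.5 to 103 CPM, overlapped each other and stood above 72.2% and 70.7% of the tested genes by mean level. Tead4, at 17.6 to 25.3 CPM, and Sox9, at 14.4 to 26.0 CPM, also overlapped each other and stood above 34.1% and 31.6%. Ngfr, Aqp1 and Zeb1 followed at or under 6.61, 1.58 and 0.99 CPM, above 7.99%, 3.75% and 0.61% of the tested genes, and their ranges overlapped. The 3 genes at 0 belong to the 7398 genes of the table (32.5%) with no count in any library.

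Ngfr encodes a death domain receptor that binds neurotrophins and works with sortilin or with the Trk kinases. HPC replicates 1 to 3 gave 20, 0 and 4 raw counts of it, and LPC replicates 1 to 3 gave 98, 44 and 24. Every LPC library lay above every HPC library, but HPC replicate 1 came within 4 counts of LPC replicate 3. Replicate 1 was the highest of its group in both groups. HPC replicate 1 also had the highest mitochondrial share of counts, 3.21% against 2.07% to 2.56% elsewhere, whose part in its Ngfr level was not tested.

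Relative to library size, counting error alone leaves wide limits for Ngfr. The share of HPC replicate 1 was 1.10 CPM before composition scaling (exact Clopper-Pearson 95% interval 0.67 to 1.70) and that of LPC replicate 3 was 1.61 CPM (1.03 to 2.40), so these intervals overlap. The share of LPC replicate 1 was 6.67 CPM (5.41 to 8.13) and that of LPC replicate 2 was 2.34 CPM (1.70 to 3.14). In HPC replicate 3 it was 0.20 CPM (0.055 to 0.52). The count of 0 in HPC replicate 2 allows up to 0.14 CPM, the share that 3 counts would give. Its exact interval, as used for the other libraries, reaches 0.17 CPM. These limits cover counting error only.

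Over the groups, 24 of 60039943 HPC counts and 166 of 48388090 LPC counts were assigned to Ngfr. The scaled level was 0.44 ± 0.60 CPM in HPC against 3.51 ± 2.71 in LPC (SD, n = 3 each), and the SD of HPC was larger than its mean. Without the block the log2 fold change was -3.04 (SE 0.97, 95% interval -5.27 to -0.81, edgeR adjusted p = 0.38). With the block it was -3.19 (SE 0.54, 95% interval -4.44 to -1.94, edgeR adjusted p = 0.031), a 9.13-fold lower level in HPC. DESeq2 with the block passed Ngfr (adjusted p = 2.4e-05), against 4.36% of all genes, and no other member, though it gave Zeb1 and Aqp1 no adjusted p. The pairs of equally numbered libraries differed by -2.45, -4.46 and -2.45 on the log2 CPM scale for numbers 1, 2 and 3. As for all pair differences given here, this scale adds a prior count of 2, which shrinks differences at low counts. The direction was the same in 3 of 3 pairs. Of all tested genes, 21.3% were lower in HPC in all 3 pairs.

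The call was lost when the pair numbered 2, which holds the library at 0, was left out of the blocked fit (log2 fold change -2.66, edgeR adjusted p = 0.13). This model passed 0 genes of the table, so the loss was not particular to Ngfr. It has 1 residual degree of freedom, as have the fits without pair 1 or pair 3. Those passed 2947 and 196 genes, Ngfr among them in both. Without the block the size of the difference moved between -2.22 when LPC replicate 1 was left out and -5.08 when HPC replicate 1 was left out. As these are bulk libraries, fewer Ngfr-expressing cells and less Ngfr RNA per cell cannot be told apart.

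**Figure D2:**
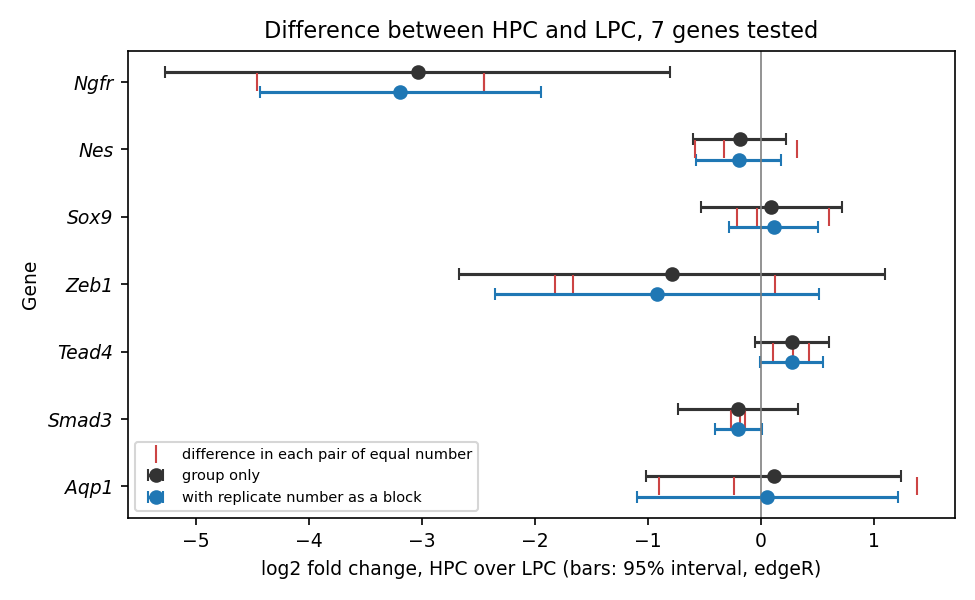
Log2 fold change of HPC over LPC (x axis) for the 7 tested genes (y axis), with 95% intervals from edgeR without (black) and with (blue) the replicate number as a block, and red ticks for the difference in each pair of equally numbered libraries. The blocked and unblocked intervals of Ngfr lie below 0, and those of the other 6 genes include 0, narrowly in the blocked fit of Tead4 and Smad3.

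Ngfr (ENSMUSG00000000120) spans bases 95568818 to 95587735 of chromosome 11, minus strand in GRCm38, with 1 annotated 3' end and no overlapping gene in GENCODE M21. Upstream bases of it are shown because it is the member that passed, beside those of Aqp1, another neural crest-like marker at a low level that did not. They come from RefSeq's promoter table (GRCm38.p6), which held 6 of the 10 genes, and the Ngfr stretch is cut where the GENCODE gene begins. The Aqp1 stretch lies before the RefSeq start and ends short of the GENCODE start given for Aqp1 here. Capitals mark CpG, the dinucleotide at which mouse DNA is methylated.
Ngfr, chr11:95587736-95587948, minus strand: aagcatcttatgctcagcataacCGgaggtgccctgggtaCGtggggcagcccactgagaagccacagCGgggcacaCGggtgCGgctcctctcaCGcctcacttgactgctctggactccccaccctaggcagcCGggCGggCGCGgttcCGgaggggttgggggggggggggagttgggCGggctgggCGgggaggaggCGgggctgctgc
Aqp1, chr6:55336049-55336298, plus strand: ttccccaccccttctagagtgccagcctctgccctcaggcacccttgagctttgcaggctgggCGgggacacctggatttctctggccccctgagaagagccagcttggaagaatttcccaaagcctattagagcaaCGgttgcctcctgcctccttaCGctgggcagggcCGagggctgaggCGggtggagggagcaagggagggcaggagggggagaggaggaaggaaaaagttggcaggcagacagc

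The Ngfr stretch of 213 bases holds 14 CpG and the Aqp1 stretch of 250 bases holds 5. In whole windows of 250 bases, Ngfr had 16 CpG at 70.4% G and C, Smad3 22, Nes 15, Egfr 11 and Sox2 27, against a median of 6 CpG and 52.4% over 32851 promoters. Sox2 and Egfr, at 0 counts, thus exceeded the median in CpG as Ngfr, Nes and Smad3 did. Motifs were searched on both strands in the same windows: CACGTG and CATGTG, bound by MITF, CACCTG, bound by ZEB factors, GGAATG, bound by TEAD factors, AACAAT, bound by SOX factors, and CAGAC, bound by SMAD factors. None of these motifs overlaps another by its letters at the sites found.

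The Ngfr window held none of the 6 motifs. Aqp1 held CACCTG, present in 17.2% of all windows, and CAGAC, present in 42.2%, and Nes also held CAGAC. The other motifs were in none of the 6 windows, and are in 6.02% (CACGTG), 12.3% (CATGTG), 12.6% (GGAATG) and 9.42% (AACAAT) of all windows. A match is only a run of letters, and no binding was measured here.

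The 5 tested genes with a profile nearest to that of Ngfr were Ttc9, Onecut3, Nsg1, Kcna6 and 6330403A02Rik. Likeness was the root mean square difference of log2 CPM, centred on each gene, over the 6 libraries. It was 0.79 for Ttc9, 0.96 for Onecut3, 1.04 for Nsg1 and 1.10 for both Kcna6 and 6330403A02Rik, against a median of 1.96 over all tested genes. The distance of Ngfr to the other 6 members ran from 1.87 for Aqp1 to 2.11 for Tead4, so none of them was near it by this measure.

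Onecut3 encodes a homeodomain transcription factor, Nsg1 a vesicle trafficking protein of neurons, and Kcna6 a voltage-gated potassium channel. Ttc9 had 8, 1 and 5 counts across HPC replicates 1 to 3 against 55, 66 and 53 counts across LPC replicates 1 to 3. Nsg1 had 42, 20 and 38 counts in HPC and 115, 89 and 57 in LPC, with replicate 1 highest in both groups as in Ngfr. All 5 had non-overlapping groups, lower in HPC, which the choice by likeness to Ngfr favours, so their difference is given as a description.

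**Figure D3:**
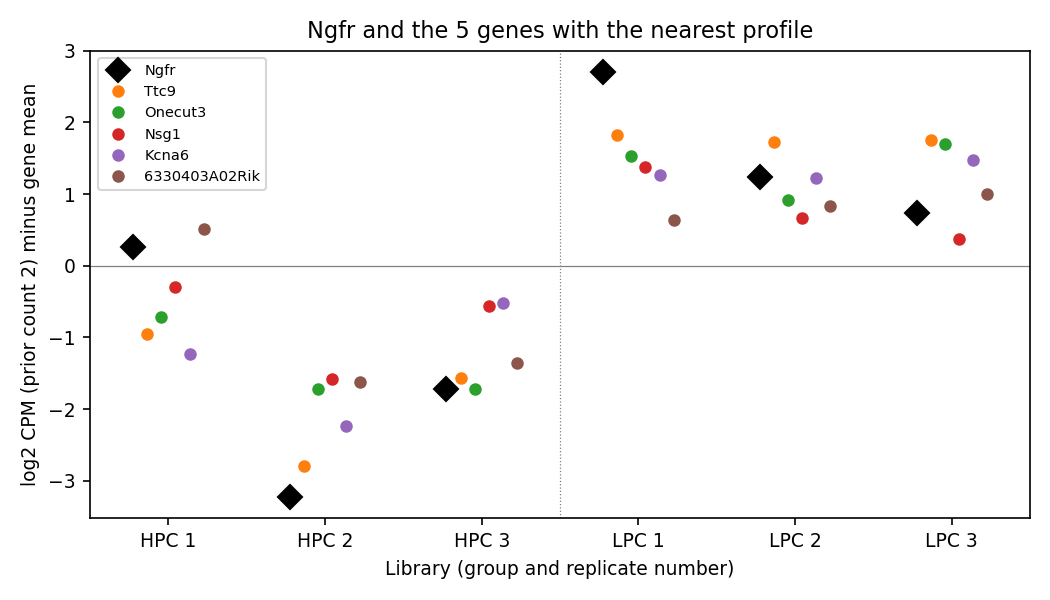
Log2 CPM (prior count 2) minus the gene's mean (y axis) in the 6 libraries (x axis) for Ngfr (black diamonds) and the 5 genes nearest to it (coloured circles, spread sideways within a library). Ngfr lies highest in LPC replicate 1 and lowest in HPC replicate 2.

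Those ligands and partners of NGFR that were tested showed no called change. Of 23 genes of this list in the table, 13 were tested and none passed with or without the block, with a median log2 fold change of 0.015. The most abundant were Arhgdia, which encodes a binding partner of the receptor, at 1075 ± 17.4 CPM in HPC against 1153 ± 77.4 in LPC, and Sort1, which encodes sortilin, at 769 ± 127 and 762 ± 139 CPM. In total, 4 of the 23 had no count in any library, among them Ntrk2, a Trk receptor gene named after its values were seen. Others were too low to test. The ligand gene Bdnf had 7, 5 and 1 counts across HPC replicates 1 to 3 and 9, 12 and 6 across LPC replicates 1 to 3. In the same order, Sorcs2 had 5, 1 and 3 against 11, 10 and 5, and Lingo1 1, 0 and 0 against 2, 7 and 4. Sorcs3, at 6, 5 and 4 against 4, 2 and 3, and Sorl1, with 1 count in all, went the other way. These too were named after their values were seen.

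Of 24 other neural crest-like genes 13 were tested, 10 with negative and 3 with positive log2 fold changes, where 6175 of all 11921 tested genes were negative, and none passed with edgeR (median -0.098). DESeq2 without the block passed 1, Ets1, a transcription factor gene. It stood at 667, 653 and 652 CPM across HPC replicates 1 to 3 against 930, 836 and 825 CPM across LPC replicates 1 to 3. The groups did not overlap (log2 fold change -0.39, DESeq2 adjusted p = 0.022, edgeR adjusted p = 0.27 without and 0.081 with the block). Cadm1, a cell adhesion gene, was at 256 ± 27.4 CPM in HPC against 325 ± 40.2 in LPC and did not pass. Foxd3, an early neural crest factor, had no count, and Gfra2, a receptor gene of the neural crest-like state, had 1 count in all. Both were named after their values were seen.

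Nes encodes nestin, an intermediate filament protein of neural progenitors, and was the most abundant of the 10. It stood at 57.8, 77.1 and 88.8 CPM across HPC replicates 1 to 3 against 86.8, 96.5 and 71.2 CPM across LPC replicates 1 to 3. The groups overlapped, and the lowest library was HPC replicate 1. The log2 fold change was -0.19 (SE 0.18, 95% interval -0.60 to 0.22, edgeR adjusted p = 0.82). The pairs numbered 1 and 2 differed by -0.58 and -0.32 and the pair numbered 3 by 0.32. Nes (ENSMUSG00000004891) spans bases 87971078 to 87980451 of chromosome 3, plus strand.

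Sox9, a transcription factor of cartilage and neural crest, stood at 22.01, 14.5 and 22.5 CPM in HPC and at 14.4, 14.9 and 26.0 CPM in LPC, each in the order of replicates 1, 2 and 3. Both the highest and the lowest library were LPC ones. The log2 fold change was 0.093 (SE 0.27, 95% interval -0.53 to 0.72, edgeR adjusted p = 0.96), and its sign turned when HPC replicate 3, LPC replicate 1 or LPC replicate 2 was left out. Sox9 (ENSMUSG00000000567) spans bases 112782224 to 112787760 of chromosome 11, plus strand.

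Sox2, a stem cell and neural progenitor factor, had no count among 108428033 over the 6 libraries. By the share of 3 counts, this allows up to 0.028 CPM overall and 0.14 to 0.20 CPM in single libraries. The exact intervals of single libraries reach 0.17 to 0.25 CPM. Sox2 (ENSMUSG00000074637, chromosome 3, 34650405 to 34652461, plus strand) lies inside the non-coding gene Sox2ot on the same strand, so that reads there can fit both genes. Sox2ot itself is not among the 22740 genes counted. The treatment of such reads in the authors' counting is not known from the sources. A count of 0 at Sox2 therefore limits only the reads assigned to it. Of 15 other SOX genes 6 were tested, with a median log2 fold change of -0.063, and none passed. All 6 values were negative without the block and 4 of them with it, where 6175 of all 11921 tested genes were negative without it. Sox10, the melanocyte lineage factor, was the most abundant, and Sox4, a factor of progenitor cells, stood at 102 ± 29.0 CPM in HPC against 115 ± 16.9 in LPC.

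Zeb1 encodes a repressor of epithelial genes that drives mesenchymal change. It had 3, 22 and 1 counts across HPC replicates 1 to 3 against 13, 17 and 6 counts across LPC replicates 1 to 3. HPC replicate 2 was the highest of all 6 libraries, while HPC replicates 1 and 3 were the lowest. The log2 fold change was -0.79 (SE 0.82, 95% interval -2.68 to 1.10, edgeR adjusted p = 0.83), and it was -2.69 without HPC replicate 2. The interval reaches from a 6.39-fold lower level in HPC to a higher one, so the direction was not detectable at this depth. Zeb1 (ENSMUSG00000024238) spans bases 5591860 to 5775467 of chromosome 18, plus strand, overlaps 3 other genes, none of which covers its 3' end, and has 12 annotated 3' ends.

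Zeb2, the paralog that melanocytes express, was at 225 ± 25.0 CPM in HPC against 265 ± 32.5 in LPC and did not pass. Of 7 tested genes among ZEB partners and epithelial or mesenchymal genes none passed, with a median log2 fold change of -0.19. Vim, the gene of the mesenchymal filament vimentin, was at 1755 ± 183 CPM in HPC against 2250 ± 326 in LPC (edgeR adjusted p = 0.51).

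Tead4 encodes a DNA-binding partner of YAP and TAZ. It stood at 21.5, 25.3 and 23.0 CPM across HPC replicates 1 to 3 against 17.6, 18.8 and 21.4 CPM across LPC replicates 1 to 3. All HPC libraries lay above all LPC libraries, but HPC replicate 1 exceeded LPC replicate 3 by little, at 21.5 against 21.4 CPM. The log2 fold change was 0.27 (SE 0.14, 95% interval -0.054 to 0.60, edgeR adjusted p = 0.63) and 0.28 with the block (edgeR adjusted p = 0.27). The HPC library was the higher one in 3 of 3 pairs, as in 19.6% of all genes. Tead4 (ENSMUSG00000030353) spans bases 128224288 to 128300823 of chromosome 6, minus strand, and overlaps a pseudogene on the other strand, Gm21893, that had 1 count in all.

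Of 11 tested TEAD factors, coactivators and targets, 1 passed with edgeR and the block, as lower in HPC, and none with edgeR alone (median -0.034). It was Ajuba, a LIM protein that restrains the kinases upstream of YAP, at 35.7, 37.9 and 38.2 CPM across HPC replicates 1 to 3 against 54.9, 64.5 and 51.0 CPM across LPC replicates 1 to 3. Its level was lower in HPC by 1.52-fold (log2 change -0.60, SE 0.10, edgeR adjusted p = 0.034 when blocked and 0.18 otherwise, DESeq2 adjusted p = 0.0063 without the block). Yap1 itself was at 174 ± 5.51 CPM in HPC against 175 ± 3.26 in LPC, and Tead1, another TEAD factor gene, at 104.5 ± 10.6 and 110.1 ± 22.9 CPM.

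Smad3 carries the TGF-beta signal to the nucleus. It read 55.5, 65.2 and 90.7 CPM across HPC replicates 1 to 3 against 61.3, 78.4 and 103 CPM across LPC replicates 1 to 3. The groups overlapped widely, while in each pair of equal number the HPC library was the lower one, by 0.14, 0.27 and 0.19 on the log2 scale. The spread between numbers was thus larger than that within pairs. The log2 fold change was -0.20 (SE 0.23, 95% interval -0.73 to 0.33, edgeR adjusted p = 0.85), and with the block -0.20 (SE 0.089, edgeR adjusted p = 0.28). Without LPC replicate 3 and without the block its sign turned. Smad3 (ENSMUSG00000032402) spans bases 63646767 to 63757994 of chromosome 9, minus strand.

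All 18 genes of the TGF-beta and SMAD list were tested and none passed (median -0.084). Of the 18, 14 had negative log2 fold changes, as had 6175 of all 11921 tested genes. The most abundant were Smad5, which carries BMP signals, at 312 ± 16.1 CPM in HPC against 342 ± 46.8 in LPC, and Ski, a SMAD corepressor, at 113 ± 6.99 and 122 ± 5.07 CPM.

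Wnt5a, the gene of a non-canonical WNT ligand, had no count in any library. The same limit as for Sox2 applies, up to 0.028 CPM overall. Wnt5a (ENSMUSG00000021994) spans bases 28504750 to 28527448 of chromosome 14, plus strand, and overlaps the antisense gene Gm2670. Its receptor gene Ror2 also had no count and Ror1 had 0 to 4 per library, both named after their values were seen. Of 19 tested WNT receptors and effectors, Fzd9, a frizzled receptor gene, was the 1 that passed with the block. It averaged 2.98 ± 0.47 CPM in HPC and 5.90 ± 0.19 in LPC, lower in HPC by 1.98-fold (log2 change -0.98, SE 0.20, edgeR adjusted p = 0.0495 when blocked and 0.20 otherwise, DESeq2 adjusted p = 0.028 without the block). Ctnnb1, the beta-catenin gene, at 1915 ± 32.4 and 2121 ± 29.2 CPM, and the WNT coreceptor gene Lrp6, at 215 ± 4.001 and 219 ± 20.8 CPM, did not pass.

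Egfr, the gene of the epidermal growth factor receptor, had no count in any library either. It (ENSMUSG00000020122) spans bases 16752203 to 16918158 of chromosome 11, plus strand, with 5 annotated 3' ends, and overlaps the antisense gene Egfros, which does not cover its 3' end. Among its ligands and family, 10 of 15 genes were tested, 9 with negative log2 fold changes (median -0.26), where 6175 of all 11921 tested genes were negative. With the block 2 were lower in HPC and none higher, where 1.1% of all genes were lower. Without the block none passed with edgeR, and DESeq2 passed Lrig1 (DESeq2 adjusted p = 0.0027). Tgfa, the gene of the ligand TGF-alpha, stood at 11.6, 4.92 and 11.5 CPM across HPC replicates 1 to 3 against 18.0, 16.5 and 21.8 CPM across LPC replicates 1 to 3. Its level was lower in HPC by 2.11-fold (edgeR adjusted p = 0.046 with the block, 0.35 without it).

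Lrig1, which encodes a membrane protein that promotes the breakdown of receptors of the EGFR family, was at 0.85 ± 0.26 CPM in HPC against 3.06 ± 0.46 in LPC. Its level was lower in HPC by 3.64-fold (log2 change -1.87, SE 0.31, edgeR adjusted p = 0.031 when blocked, 0.14 otherwise). A ligand and an inhibitor of the receptor family were thus both lower in HPC, while the receptor gene Egfr was at 0. Erbb3, a family member that melanocytes express, averaged 103 ± 34.0 CPM in HPC and 131 ± 20.4 in LPC without passing, and neither did Shc1, an adaptor of these receptors, at 162 ± 20.3 and 184 ± 32.2 CPM.

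Aqp1 encodes a water channel. It had 18, 12 and 31 counts across HPC replicates 1 to 3 against 18, 21 and 8 counts across LPC replicates 1 to 3. The highest library was an HPC one and the lowest an LPC one, and the groups overlapped. The pairs differed by -0.24, -0.90 and 1.38 on the log2 scale. The log2 fold change was 0.11 (SE 0.49, 95% interval -1.02 to 1.24, edgeR adjusted p = 0.97), and its sign turned without HPC replicate 3 or LPC replicate 3. Aqp1 (ENSMUSG00000004655) spans bases 55336432 to 55348555 of chromosome 6, plus strand, with no overlapping gene.

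Other genes of the undifferentiated or invasive state went both ways. Of 19 tested, 2 were lower and 2 higher in HPC by edgeR with the block. None passed in edgeR without it (median -0.067). With no filter or without LPC replicate 3, Met passed in edgeR without the block (edgeR adjusted p = 0.044 and 0.039). The growth factor receptor genes Pdgfrb and Pdgfra were 3.00-fold and 2.16-fold lower in HPC (edgeR adjusted p = 0.0086 and 0.045 with the block). Pdgfra stood at 4.32, 3.07 and 5.54 CPM across HPC replicates 1 to 3 against 6.27, 8.13 and 13.99 CPM across LPC replicates 1 to 3.

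S100a4, a calcium-binding protein gene, was 3.24-fold higher in HPC, at 7.12 ± 4.197 against 2.20 ± 1.43 CPM (edgeR adjusted p = 0.044 with the block). Met, the gene of the hepatocyte growth factor receptor, was also higher with the block, at 1334, 1559 and 1822 CPM across HPC replicates 1 to 3 against 444, 173 and 556 CPM across LPC replicates 1 to 3 (edgeR adjusted p = 0.019). Cd44, an adhesion receptor gene, averaged 396 ± 61.9 CPM in HPC and 436 ± 40.9 in LPC without passing. DESeq2 without the block passed Pdgfrb, as lower, and Met, as higher (DESeq2 adjusted p = 0.0011 and 1.9e-06).

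The differentiated side was read from 20 melanocyte genes, of which 19 were tested. With the block 4 were higher in HPC, Tyr, Trpm1, Oca2 and Cited1, and 1 was lower, Tfap2a, and without it none passed with edgeR (median 0.10). DESeq2 without the block passed 3 of them, Tyr and Trpm1 as higher and Tfap2a as lower (DESeq2 adjusted p = 0.0092, 0.046 and 0.039). Tyr, the tyrosinase gene, stood 5.74-fold higher in HPC with the block. The LPC library with the most Ngfr, replicate 1 at 6.61 CPM, was not the one with the least Tyr, replicate 2 at 62.2 CPM. With 3 LPC libraries this is a description, and a relation between Ngfr and Tyr was not tested. Tfap2a, a neural crest and melanocyte factor gene, stood at 80.6 ± 12.6 CPM in HPC against 122 ± 17.1 in LPC.

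**Figure D4:**
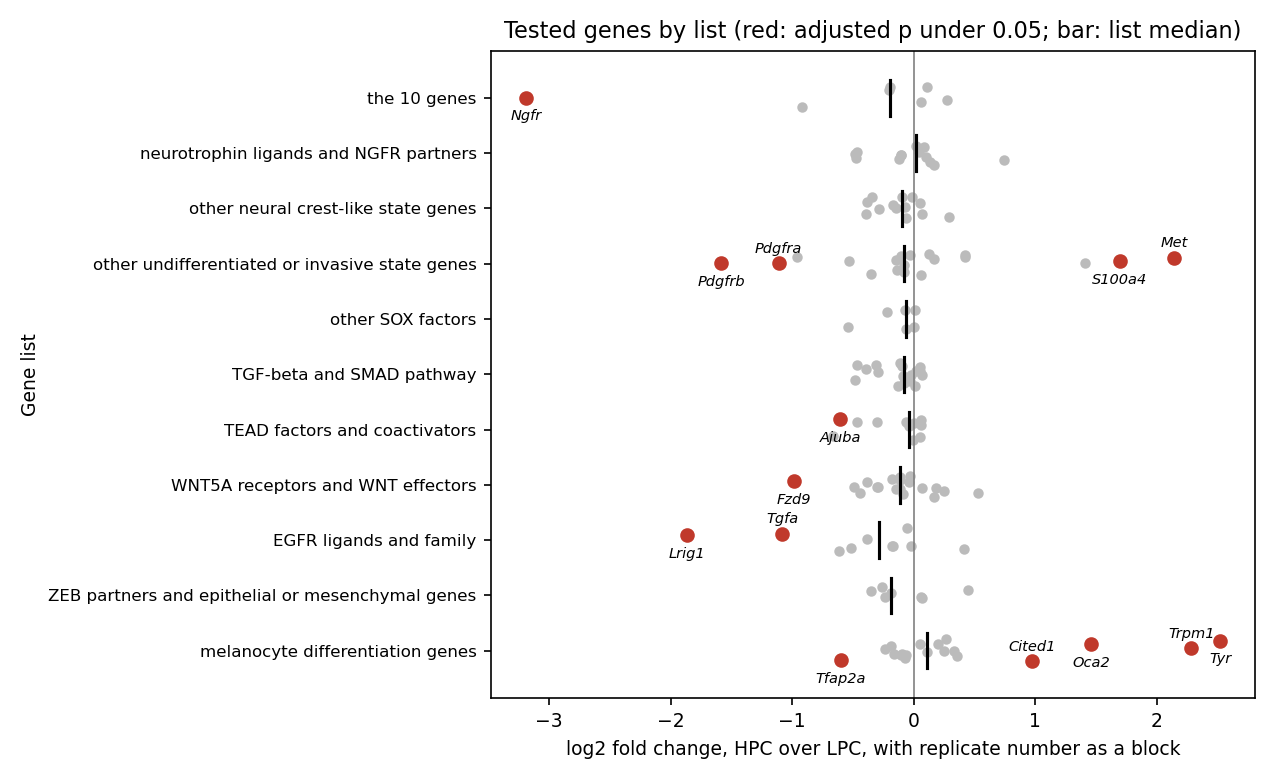
Log2 fold change of HPC over LPC with the replicate number as a block (x axis) for each tested gene of 11 gene lists (y axis), points spread vertically at random within a list, red where the edgeR adjusted p was under 0.05 and grey otherwise, with a bar at the list median. Ngfr lies farthest to the left at -3.19, and the medians lie between -0.28 and 0.11.

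Over the 10 lists beside the members, 13 of 128 distinct tested genes passed with the block, 7 lower and 6 higher in HPC. That is 10.2%, against 2.52% of all genes. The lists were chosen with results of these data known and several of the 13 had been named before, so this share is a description. When the pair numbered 2 was left out of the blocked fit, no gene of the whole table passed, so each call named here from the blocked fit was lost without it. With pair 1 left out instead, 2947 genes passed, and with pair 3 left out, 196.

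Markers of other cell types were read in the same libraries. The immune genes Ptprc, Cd3e, Itgam and Tyrobp, the endothelial genes Cdh5, Kdr, Cldn5, Erg and Emcn, and the keratinocyte genes Krt1, Krt5, Krt10, Krt14, Krt15 and Trp63 had no count. Summed levels in HPC and LPC were 8.70 to 15.9 and 4.18 to 9.44 CPM for 9 immune genes, 29.7 to 40.3 and 18.6 to 38.9 CPM for 10 endothelial genes, and 4.01 to 6.68 and 3.17 to 4.62 CPM for 10 keratinocyte genes. They were 60.7 to 66.8 and 55.4 to 61.7 CPM for 10 fibroblast genes, of which Postn passed as higher in HPC in edgeR with the block and in DESeq2 without it. Of these 10, 6 to 9 were detected in each library. Dcn, Col3a1 and Thy1, named after their values were seen, had 0 or 1 counts per library. The 2 immune and 2 keratinocyte genes tested were all higher in HPC (median log2 fold change 0.67 and 0.70). In each list 1 had an unadjusted p under 0.05 in edgeR, and none passed with or without the block. Of the endothelial genes tested, 1 was higher and 1 lower, and of the fibroblast genes 2 and 2.

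Schwann cells express Ngfr, and 10 of their markers summed to 406 to 582 CPM in HPC and 381 to 566 CPM in LPC, with none at 0 in all libraries. Melanoma cells share several of these genes. With the block Mbp, a myelin protein gene, was 1.76-fold higher and Pmp22, another myelin gene, 1.63-fold lower in HPC (edgeR adjusted p = 0.029 and 0.018), and both also passed in DESeq2 without it. The part of these levels in the Ngfr difference was not tested.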

How the data were processed

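The deposited table holds un-normalized raw counts for each gene and library; the authors' counts come from QuantSeq 3' mRNA-Seq FWD libraries of total RNA sequenced on a NextSeq 500, per the labels' protocols. STAR and GRCm38 are named in the submitters' processing notes. Neither the counting program, the annotation, the strand setting nor the use of molecular identifiers is stated in them; without identifiers, PCR copies are not independent molecules.

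Genes were filtered with filterByExpr and scaled with TMM, and HPC and LPC were compared with edgeR's quasi-likelihood test (edgeR 4.0.16, R 4.3.3), group as the only term, Benjamini-Hochberg adjusted over 11921 genes, threshold 0.05. SEs were derived from the F statistic. The scripts were tested on simulated counts. Alternatives were other scalings and filters, DESeq2 1.42.0, limma-voom (limma 3.58.1), a replicate block and leaving out each library.

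The groups share replicate numbers. Deviations from the group means correlated at 0.42, 0.35 and 0.65 between equally numbered libraries, above the minimum of 0.1 set for pairing. A blocked value therefore stands beside each result whose call it changes. Between unequally numbered libraries the correlations ran from -0.59 to 0.20. The highest, HPC replicate 2 with LPC replicate 1, was also above that minimum. The pairing comes from the data, not the labels. Deviations of 3 libraries cancel within a group, which makes some matching likely. With the block, 2 residual degrees of freedom are left.

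The members and lists were chosen with earlier results of these data known. Text names the members, each list's called genes and up to 2 of its most abundant ones, and the 5 genes nearest to Ngfr. Positions are GENCODE M21 on GRCm38.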

Additional observations from a re-analysis of the deposited data

How the results depend on the processing

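The count of genes that passed, 5, was 28 with no filter, 1 with a mean CPM of at least 1, 224 with DESeq2 and 301 with the replicate block, and ran from 0 to 43 when 1 library was left out. Of the 7 tested members, 0 passed without the block under any alternative run, and 1, Ngfr, with the block, with the block and no filter, with DESeq2 and the block, and with the block without the pair numbered 1 or 3. Without the pair numbered 2 it was 0. These fits of 2 pairs have 1 residual degree of freedom and carry little weight.

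Ngfr kept its direction in every alternative. It passed with the replicate block (log2 fold change -3.19), with the block and no filter (-3.18), with DESeq2 and the block (-3.52), and with the block but not pair 1 (-4.26) or pair 3 (-3.30). Its adjusted p without the block ran from 0.080 with DESeq2 to 0.89 without LPC replicate 2. The list genes that passed, 0, were 1 with no filter, 9 with DESeq2, 13 with the block and 0 to 2 when 1 library was left out. Settings that join the block with DESeq2, no filter or a left-out pair for other genes, and all settings for list genes, were chosen after seeing the data.

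Of 47 genes followed, 12 turned sign in at least 1 alternative, none of them a call without the block and Cited1 a call with it. Left-out libraries gave, without the block, Sox9 -0.015, -0.053 and -0.027 (HPC replicate 3, LPC replicates 1 and 2), Smad3 0.010 (LPC replicate 3), Aqp1 -0.32 and -0.16 (HPC and LPC replicate 3), Sort1 -0.11, -0.023 and -0.077 (HPC replicate 3, LPC replicates 1 and 2), Sox4 0.032 and Sox10 0.020 (HPC replicate 2), Tead1 0.11 and Lrp6 0.046 (LPC replicate 1), Yap1 0.029 and 0.012 (HPC replicate 1, LPC replicate 3) and Cited1 -0.013 (HPC replicate 3). In the blocked fit without pair 1, Nes was 0.0027, Sox9 -0.12, Sort1 -0.0045, Tead1 0.16, Yap1 0.028, Lrp6 0.067 and Pmel -0.011, and without the pair numbered 3 Aqp1 was -0.63. Sort1 was -0.017 with upper quartile scaling and -0.0042 with library size only. Yap1 was 0.00041 with RLE scaling, 0.0089 with no filter, 0.0028 with a mean CPM of at least 1, 0.00051 with DESeq2, 4.3e-05 with DESeq2 and the block and 0.0085 with the block and no filter. At the other end, leaving out 1 library gave at most 0.42 for Sox9, 0.44 for Aqp1, 0.17 for Sort1 and 1.87 for Cited1, and at least -0.42 for Smad3, -0.35 for Sox4, -0.098 for Sox10, -0.020 for Yap1 and -0.080 for Lrp6. For these the cause was not tested. Zeb1 and Aqp1 fell out under the mean CPM filter, and Zeb1 without the pair numbered 2, so those settings gave no value.

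Depth limits Ngfr, Zeb1 and Aqp1, whose counts were at or under 98, 22 and 31 per library. For Ngfr and Zeb1 the spread between libraries of a group also exceeded counting error. Of Sox2, Wnt5a and Egfr, depth says only that their share was not detectable.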
